A study of Mus musculus with 8 samples.

Results

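The transcripts of the mitochondrial chromosome were taken as all features whose coordinates lie on chrM, 13 of the 56465 features measured. None of the 13 carries a gene symbol, so each is named here by the genes it spans in the GENCODE M21 annotation (GRCm38). RNA sequencing was done on 8 detached mouse retinas. The 4 WT samples are wild type, and the 4 TG samples express human transferrin, the iron-binding protein of blood plasma.

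All 8 samples carry the strain label C57Bl/6J. In both groups the retina had been separated from the underlying pigment epithelium by sodium hyaluronate placed in the subretinal space, and it was collected 4 days later, so neither group is an attached retina. WT comprised 3 male samples (3 right eyes) and 1 female sample (1 left eye). TG comprised 2 male and 2 female samples, with 1 right and 1 left eye of each sex. The labels give no age, no promoter for the transgene, and no statement that the retinas are from different mice. P-values therefore measure only the spread between these samples, which may be technical. The features are those of the mouse genome, and the human transgene was not analysed here. Libraries are named by group and label number (WT 3, 4, 5 and 7, and TG 2, 5, 6 and 8).

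The mitochondrial chromosome is a small circle that is transcribed from both strands into long precursors. Enzymes cut out the tRNAs that lie between the other genes, and this frees the mRNAs and the rRNAs. The mRNAs encode core subunits of respiratory complexes I, III and IV and of ATP synthase, and the 12S and 16S rRNAs form the mitochondrial ribosome. Most mitochondrial mRNAs carry a poly(A) tail and the rRNAs a short one, so both can enter a library made from polyadenylated RNA as these were. In the retina, mitochondria are packed into the inner segments of photoreceptors.

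The annotation places 37 genes on chrM, comprising 13 mRNAs, 2 rRNAs and 22 tRNAs. The 13 features cover 13432 of the 16294 bases from the start of the first gene to the end of the last feature (82.4%), and several span more than one gene. The 12S feature (chrM:68-957, 890 bases) holds mt-Rnr1, the 12S rRNA. The 16S-Nd1 feature (chrM:1094-3841, 2748 bases) holds mt-Rnr2, the 16S rRNA, together with mt-Nd1, a membrane subunit of complex I, and 3 tRNA genes. Its reads therefore could not be divided between rRNA and mRNA.

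A group of 5 features holds mRNA without rRNA. The Nd2 feature (chrM:3845-5171), the Nd3 feature (chrM:9459-9804) and the Nd4l-Nd4 feature (chrM:9876-11544) hold complex I subunits. The Co1 feature (chrM:5325-6941) holds mt-Co1, the catalytic subunit of complex IV. The Nd5-Cytb feature (chrM:11742-15288) joins mt-Nd5 of complex I, mt-Nd6 of complex I from the opposite strand, and mt-Cytb, the cytochrome b of complex III. Of the remaining features, 2 lie over the control region, the noncoding stretch that holds the promoters (chrM:15356-16294, which also contains mt-Tp, and chrM:15763-16189 inside it). The last 4 overlap features already named: a stretch inside 12S (chrM:332-623), a stretch inside Nd1 (chrM:3401-3555), a span from the end of mt-Co3 to the start of mt-Nd4l (chrM:9203-9888), and a span from mt-Nd5 to mt-Nd6 (chrM:11720-14070).

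No feature holds tRNA alone. Of the 22 tRNA genes, 12 lie almost whole (at least 90% of their bases) inside a longer feature, 3 lie there in part and 7 lie in none. As an example of a tRNA whose reads are counted within a longer feature, mt-Tl1, the leucine tRNA between mt-Rnr2 and mt-Nd1 (chrM:2676-2750, plus strand), is shown whole in the sense direction.

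mt-Tl1: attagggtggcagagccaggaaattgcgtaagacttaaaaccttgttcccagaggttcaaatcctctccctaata

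The longest stretch outside the features is 2261 bases (chrM:6942-9202), where mt-Co2, mt-Atp8, mt-Atp6 and most of mt-Co3 lie. Features with many reads lie instead on chromosome 1, over a block in which the annotation holds 7 pseudogenes that copy chrM, on the minus strand. In a sequence search against nuclear GENCODE transcripts at 90% identity or more, Gm28661 matched mt-Co2 over 681 bases with 0 mismatches. Gm10925 matched mt-Atp6 over 678 bases and Gm28437 matched mt-Co3 over 783 bases, also with 0 mismatches. The first 60 bases of mt-Co2 (chrM:7013-7072) and of Gm28661 (chr1:24615506-24615565) are shown to let the match be seen, since reads of the gene and of the copy cannot be told apart there by sequence.

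mt-Co2: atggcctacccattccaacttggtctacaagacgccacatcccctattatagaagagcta

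Gm28661: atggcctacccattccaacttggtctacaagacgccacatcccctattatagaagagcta

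The same block also copies genes that do have a chrM feature. Gm10222 matched mt-Nd4l over 294 bases and Gm28439 matched mt-Nd4 over 876 bases, both with 0 mismatches. Gm28438 matched mt-Nd3 over 345 bases with 1 mismatch, T3C, counted from 1 at the coding start with the chrM base first. The windows of mt-Nd3 (chrM:9459-9518) and Gm28438 (chr1:24613060-24613119, minus strand) are shown with the mismatched base in capitals.

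mt-Nd3: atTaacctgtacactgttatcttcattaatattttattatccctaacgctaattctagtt

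Gm28438: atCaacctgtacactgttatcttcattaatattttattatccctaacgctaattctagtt

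A read of mt-Nd3 that misses that base fits both places. The sources used here do not give how reads with several places in the genome were treated, and its part in the chrM values was not tested.

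The poly(A) tail matters for these mRNAs in another way, since it completes the stop codon of some of them. Of the 13 annotated mRNAs, 10 end in a complete stop codon and 3 (mt-Co3, mt-Nd4 and mt-Cytb) end in a lone T. These counts follow the annotated gene ends. The last bases of mt-Nd1 (to chrM:3707) and mt-Nd2 (to chrM:4951) also lie in tRNA genes of the same strand. These are mt-Ti (from chrM:3706) and mt-Tw (from chrM:4950), and the ends left once the tRNAs are cut out were not examined. The last 30 bases of mt-Co1 (chrM:6843-6872), mt-Nd4 (chrM:11515-11544) and mt-Cytb (chrM:15259-15288), all on the plus strand, are shown with the stop bases in capitals. The Nd4l-Nd4 and Nd5-Cytb features stop exactly at the lone T.

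mt-Co1 end: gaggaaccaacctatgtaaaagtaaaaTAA

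mt-Nd4 end: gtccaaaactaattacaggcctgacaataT

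mt-Cytb end: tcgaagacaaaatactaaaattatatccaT

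The libraries held 61535690 to 75866423 counted reads. Rod photoreceptor markers (15 genes, all measured) made up 11.8 to 13.2% of reads outside chrM and its chromosome 1 copy in WT and 10.2 to 13.9% in TG, so the main cell type of the retina was present in every library. The summed level of 10 pigment epithelium markers ran from 0.0105 to 0.212% in WT (highest in WT 3) and from 0.0152 to 0.101% in TG (highest in TG 2). The summed level of 8 lens markers ran from 9.8e-05 to 0.0515% in WT (highest in WT 3) and from 0.000261 to 0.0384% in TG (highest in TG 6). No marker of either list was at 0 in all libraries. The sums of these markers thus differed between libraries of the same group, and several results below are also given without WT 3.

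The chrM features held a smaller share of reads in TG than in WT on average, with groups that overlapped. The share of reads was 27.5% in WT 3, 21.9% in WT 4, 24.6% in WT 5 and 27.2% in WT 7. It was 22.1% in TG 2, 20.4% in TG 5, 22.3% in TG 6 and 22.1% in TG 8. The 3 WT libraries other than WT 4 lay above all TG libraries, and WT 4 lay below 3 of the 4 TG libraries, so the order of the groups did not hold for every library. The mean was 25.3% ± 2.61 (SD, n = 4) in WT and 21.7% ± 0.923 (SD, n = 4) in TG, a difference of -3.55 percentage points. Without WT 3 the difference was -2.82 percentage points. The share is a sum over the features and was given no test. In bulk tissue, fewer mitochondria-rich cells and less mitochondrial RNA per cell cannot be told apart.

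Adding the 4 chromosome 1 copy features, a choice made after seeing the data, raised the share in every library. It then ran from 29.9 to 38.3% in WT and from 27.3 to 30.7% in TG, with means of 34.3% ± 3.68 and 29.1% ± 1.40 (SD, n = 4 each). The copy features alone took 9.01% ± 1.25 of reads in WT and 7.32% ± 0.757 in TG. TG 6, at 30.7%, lay above WT 4, at 29.9%. When levels were set per kilobase of feature, the chrM share of the summed levels averaged 44.0% ± 3.26 for WT and 38.6% ± 1.07 for TG. On that scale every WT library lay above every TG library, but no share over all features was computed for it. The scale gives more weight to short features such as Nd3 (346 bases). Nd3 ran from 2241 to 5394 normalized reads per base in WT and from 1059 to 2297 in TG.

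**Figure D1:**
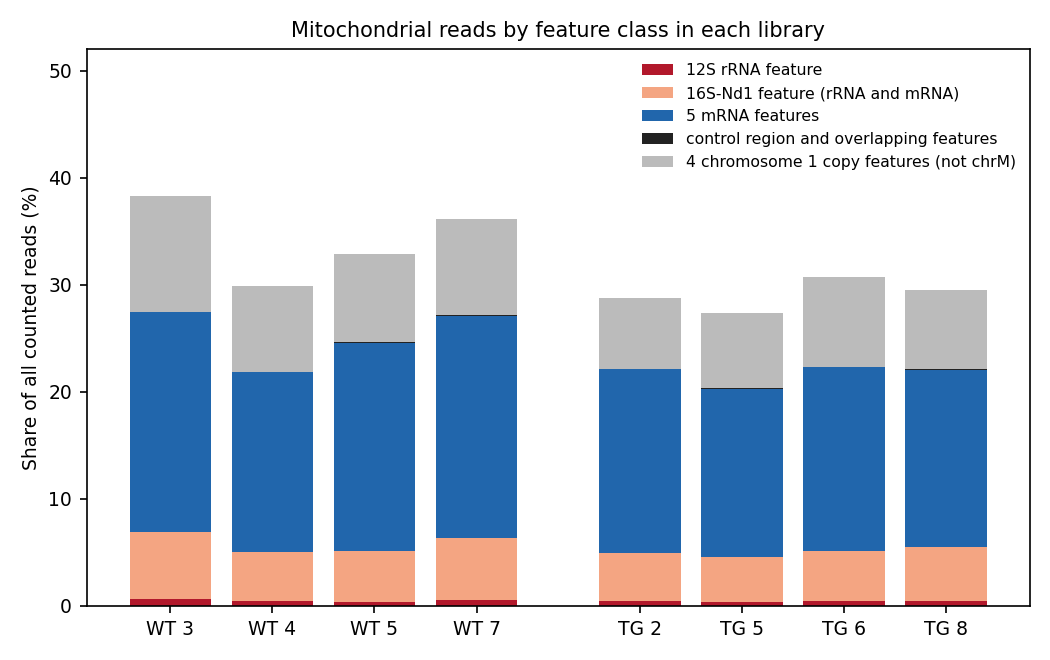
Stacked bars give the share of all counted reads (percent) in each of the 8 libraries, split by class of chrM feature, with the chromosome 1 copy features in grey on top. The coloured parts reach 21.9 to 27.5% in WT and 20.4 to 22.3% in TG, and the mRNA features form most of every bar.

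The chrM reads were mostly mRNA, and the division between mRNA and rRNA was close to the same in both groups. The 5 mRNA features held 74.6% of chrM reads in WT 3, 76.9% in WT 4, 78.9% in WT 5 and 76.5% in WT 7, against 77.7% in TG 2, 77.1% in TG 5, 76.7% in TG 6 and 75.0% in TG 8. The ranges of the groups overlapped. The means (± SD, n = 4 each) were 76.7% ± 1.78 for WT and 76.7% ± 1.13 for TG, a difference of -0.0731 percentage points.

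The 12S rRNA was a minor part of chrM reads. It held 2.14% in WT 3, 1.78% in WT 4, 1.36% in WT 5 and 1.82% in WT 7, against 1.79% in TG 2, 1.87% in TG 5, 1.84% in TG 6 and 2.05% in TG 8. All TG values lay inside the WT range, and the difference of 0.115 percentage points was smaller than the WT SD of 0.321 and became -0.0245 without WT 5. Set per kilobase of feature, the 12S share was 2.56 to 3.55% in WT and 3.51 to 3.89% in TG, with 3 TG libraries above all WT libraries and a difference of 0.474 percentage points against a WT SD of 0.444. The merged 16S-Nd1 feature held 19.4 to 23.0% in WT and 20.3 to 22.5% in TG. Counted wholly as rRNA, it would bring rRNA to 23.0% ± 1.77 of chrM reads in WT and 23.0% ± 1.10 in TG. Counted wholly as mRNA, it would bring mRNA to 98.0% ± 0.325 and 97.8% ± 0.152. As far as the features show, the division lies between these limits, and for tRNA no share could be computed. The limits leave out mt-Co2, mt-Atp8, mt-Atp6 and most of mt-Co3, which lie outside the chrM features. They also leave out the chromosome 1 copy features, which took 9.01% of all reads in WT and 7.32% in TG. The mRNA share of all mitochondrial reads may thus be higher than given here.

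The features over the control region held 0.257% ± 0.0147 of chrM reads in WT and 0.304% ± 0.0479 in TG, with 3 TG libraries above all WT libraries and TG 2 (0.235%) below them. The overlapping features held 0.0134% ± 0.00108 and 0.0133% ± 0.000898 (SD, n = 4 each for both classes). For scale, a feature over the nuclear rRNA locus (chr17:39842997-39848829) held 0.435 to 1.43% of all reads in WT and 0.721 to 1.57% in TG. The poly(A) selection thus left both kinds of rRNA in the libraries, the nuclear kind at a level that varied more between libraries than the 12S share of chrM reads did.

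Within the chrM reads, the Nd2 feature stood out among the larger features. Its share was 10.1% in WT 3, 7.75% in WT 4, 7.61% in WT 5 and 7.83% in WT 7, and 7.52% in TG 2, 6.39% in TG 5, 7.29% in TG 6 and 6.19% in TG 8. Every TG library lay below every WT library. It was the 1 feature of 12 with that pattern, and no feature showed the opposite. When the reads of all tested features were divided by the chrM reads of their library in the same way, 0.182% lay wholly lower in TG and 6.59% wholly higher. The chrM share was itself lower in TG on average, so this division moves other features up in TG. The 2 percentages are therefore skewed, and they cannot show how rare the Nd2 pattern is, since Nd2 is part of the divisor. The lowest WT value (7.61%) and the highest TG value (7.52%) lay close together.

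The other large features had overlapping ranges. Co1 held 24.0% ± 1.97 of chrM reads in WT and 26.1% ± 1.25 in TG. Nd5-Cytb held 28.3% ± 2.16 and 29.2% ± 0.776, and Nd4l-Nd4 held 10.2% ± 0.753 and 10.3% ± 0.356 (SD, n = 4 each). Nd3 was the least even: it held 8.74% in WT 3 and 3.94 to 5.98% in the other WT libraries, against 2.68% in TG 2 and 4.37 to 4.79% in the other TG libraries.

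**Figure D2:**
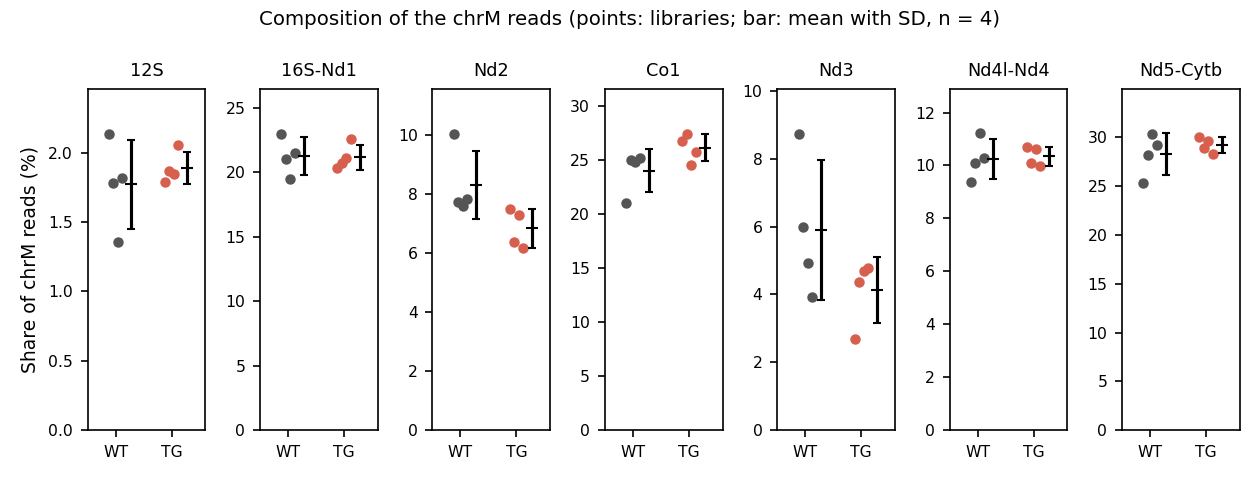
Points give the share of chrM reads (percent) of 7 features in each library, grey for WT and red for TG, beside the group mean with its SD (n = 4); each panel has its own axis, which starts at 0. The TG points for Nd2 (6.19 to 7.52%) lie below all WT points (7.61 to 10.1%), and the ranges of the other 6 features overlap.

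Levels were set per length to compare the features with one another, as normalized reads per base of feature. Co1 averaged 2687 ± 398 per base in WT and 2336 ± 183 in TG, and Nd3 averaged 3150 ± 1502 and 1750 ± 544. By the mean over all 8 libraries Co1 and Nd3 were the highest chrM features, and their ranges overlapped.

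Below them came Nd5-Cytb with 1449 ± 240 normalized reads per base in WT and 1197 ± 162 in TG, and 16S-Nd1 with 1415 ± 315 and 1119 ± 165. Nd4l-Nd4 followed with 1116 ± 188 and 902 ± 130, and Nd2 with 1157 ± 342 and 752 ± 138 (SD, n = 4 each). The ranges of neighbours in this order overlapped from Co1 down to Nd2. The 12S rRNA came next at 367 ± 114 per base in WT and 308 ± 44.3 in TG. Its mean over all libraries was 2.83-fold below that of Nd2, and the ranges no longer overlapped. The longer control region feature was a further 8.27-fold lower per base.

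The chromosome 1 feature that copies mt-Atp6 and mt-Co3 (chr1:24613188-24614814) had a higher mean per base than any chrM feature, at 3460 ± 821 in WT and 2522 ± 569 in TG. In plain normalized reads it had the highest mean over all 8 libraries among the chrM and chromosome 1 copy features. It lay below Nd5-Cytb in 5 of the 8, however, and its TG mean of 4103791 was below the 4246156 of Nd5-Cytb. The feature over the mt-Co2 copy (chr1:24614879-24615568) averaged 1263 ± 267 and 1184 ± 158 per base. By the mean over all 8 libraries it lay between 16S-Nd1 and Nd4l-Nd4, and 16S-Nd1 was above it in 3 of the 8. In contrast, a feature inside the copy of mt-Co1 (chr1:24615710-24615972) had 304 to 643 normalized reads, 7016 to 13207 times fewer than the chrM Co1 feature.

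Where chrM features overlap, one of them took most of the reads. The span from mt-Nd5 to mt-Nd6 held 0.0391 to 0.0492% as many reads as Nd5-Cytb, which overlaps it over mt-Nd5 and mt-Nd6 and also holds mt-Cytb. The 12S feature held 33522 to 267211 times the reads of the stretch inside it, which had 0.921 to 7.04 normalized reads per library. The span from mt-Co3 to mt-Nd4l had 27.3 to 92.1 normalized reads, although Nd3 lies inside it. The shorter control region feature was the exception, with 14.6 to 26.6% as many reads as the longer. The Nd5-Nd6 span ends at the outer end of mt-Nd6, the one mRNA gene on the other strand, but the table gives no strand, so its reads are not assigned to mt-Nd6 here.

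**Figure D3:**
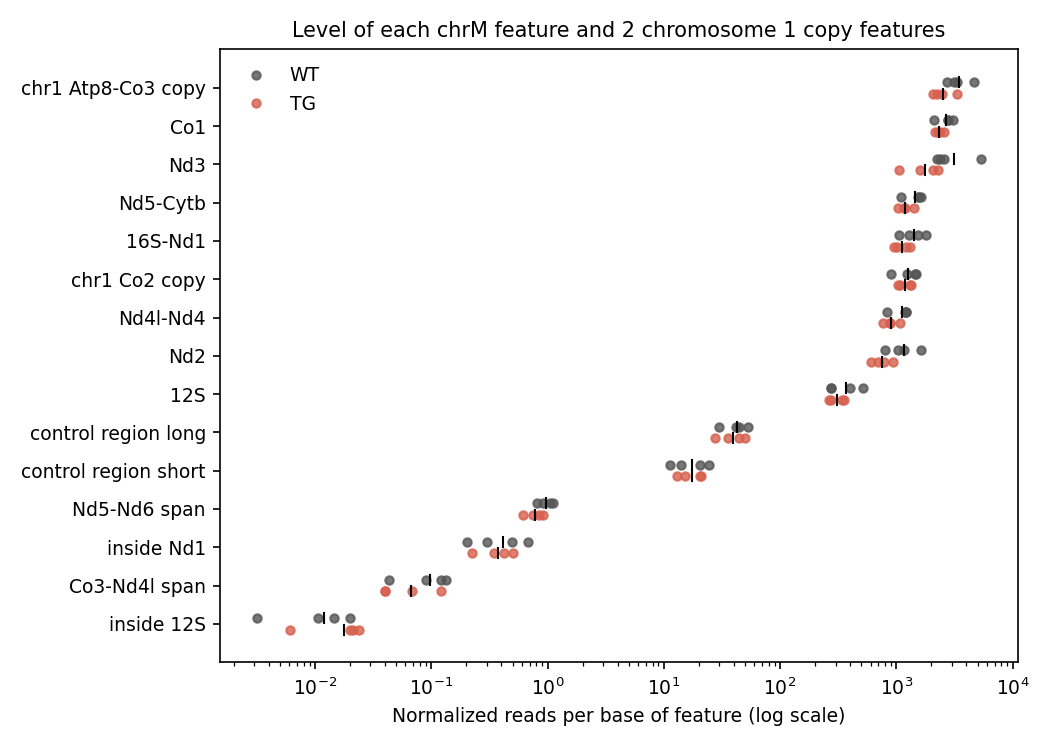
Points give normalized reads per base of feature (log axis) in each library for the 13 chrM features and 2 chromosome 1 copy features, grey for WT and red for TG, with a tick at each group mean. Co1 and Nd3 lie highest on chrM, 12S lies 2.83-fold below Nd2, and the overlapping features lie far lower.

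Against WT, 11 of the 12 chrM features that could be tested had a lower mean log2 level in TG, but none passed the test. In a limma fit over all 19798 features with a mean of at least 10 normalized reads, 0 chrM features had an adjusted p under 0.05. Across all features 0.0101% did, 0.00505% in each direction. The stretch inside 12S was below the minimum mean and was not tested. An unadjusted p under 0.05 was reached by 2 chrM features, Nd3 and Nd2, both lower in TG, against 4.64% of all features in either direction and 2.62% lower in TG. By edgeR and by DESeq2 on the recovered reads, 0 chrM features were called as well, with 2 under an unadjusted p of 0.05 by each tool. Over all features, edgeR called 2 and had 816 of 19798 under that p. DESeq2 called 16 and had 1057 of 19745 under it.

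The median log2 fold change (TG over WT) of the 12 features was -0.28, and that of all features tested was -0.02. Of all features, 52.2% were below 0 and 47.8% above. Among 303 nuclear features with a mean of at least 20000 normalized reads, 120 were lower and 183 higher, with a median of 0.05. The chrM features share long precursors and an organelle, so they do not count as separate pieces of evidence. In normalized reads the groups overlapped for every chrM feature tested, while 1.16% of all features lay wholly lower in TG, 1.36% wholly higher and 2.53% in either direction.

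Nd3, a small subunit of complex I, had the largest difference. It had 1866288 normalized reads in WT 3, 824629 in WT 4, 893430 in WT 5 and 775406 in WT 7. It had 366463 in TG 2, 552435 in TG 5, 794661 in TG 6 and 708768 in TG 8. WT 3 was far above the rest and TG 2 far below, and TG 6 lay above WT 7. The log2 fold change was -0.81 ± 0.30 (SE; 95% interval -1.46 to -0.16; limma adjusted p = 0.918). Without WT 3 it was -0.51, and with males only it was -1.31, with no adjusted p under 0.05 in either.

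Nd2, another complex I subunit, differed less but more evenly. It had 2147516 normalized reads in WT 3, 1068875 in WT 4, 1381178 in WT 5 and 1542340 in WT 7, against 1029409 in TG 2, 807582 in TG 5, 1236969 in TG 6 and 915949 in TG 8. TG 6 lay above WT 4. The log2 fold change was -0.59 ± 0.24 (SE; 95% interval -1.10 to -0.08; limma adjusted p = 0.918), and -0.42 without WT 3. As shares of all reads in a library, not scaled by the size factors, Nd2 and Nd3 both lay wholly lower in TG. Nd2 then ran from 1.70 to 2.77% in WT and from 1.30 to 1.66% in TG, and Nd3 from 1.07 to 2.40% and from 0.592 to 1.06%. On that scale 0.455% of all features lay wholly lower in TG and 3.04% wholly higher. The chrM share was itself lower in TG on average, which moves the shares of other features up in TG. Nd2 and Nd3 are also part of the divisor. These percentages are therefore skewed and cannot show how rare the pattern is.

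Nd4l-Nd4, which also holds only complex I mRNA, had 2001427 normalized reads in WT 3, 1392666 in WT 4, 2032832 in WT 5 and 2020907 in WT 7. In TG it had 1464615 in TG 2, 1277217 in TG 5, 1801284 in TG 6 and 1478390 in TG 8. WT 4 lay within the TG range and the other WT libraries above it, and the log2 fold change was -0.30 ± 0.21. Nd3 and Nd4l-Nd4 are neighbours on the chromosome, yet their ratio varied: Nd4l-Nd4 had 1.07 times the reads of Nd3 in WT 3 and 4.00 times in TG 2.

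Co1, of complex IV, had 3437287 to 4958128 normalized reads in WT and 3468530 to 4166058 in TG, and its log2 fold change was -0.19 ± 0.23. Nd5-Cytb, which joins mt-Nd5 and mt-Nd6 of complex I to mt-Cytb of complex III, had 3880703 to 5757239 and 3649681 to 5028511. Its log2 fold change was -0.27 ± 0.24. The copy of mt-Atp6 and mt-Co3 on chromosome 1 had 4425324 to 7527246 and 3336698 to 5427021, with a log2 fold change of -0.45 ± 0.26, or -0.30 without WT 3. The mt-Co2 copy had a log2 fold change of -0.08 ± 0.20, or -0.23 without WT 4 and 0.010 without WT 7. The intervals of Nd2, Nd3, Nd4l-Nd4, Nd5-Cytb and Co1 overlapped one another, and the differences between features were not tested. No feature holds complex III mRNA alone, so the complexes cannot be compared from these values.

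The rRNA features were also lower in TG on average without passing the test. The 12S feature had 456545 normalized reads in WT 3, 246008 in WT 4, 246133 in WT 5 and 357632 in WT 7, and 245353 in TG 2, 236146 in TG 5, 312927 in TG 6 and 303787 in TG 8. WT 3 and WT 7 lay above all TG libraries, WT 4 and WT 5 inside the TG range, and the log2 fold change was -0.21 ± 0.21, or -0.03 without WT 3. The 16S-Nd1 feature had 2901109 to 4907215 in WT and 2614431 to 3576446 in TG, with a log2 fold change of -0.32 ± 0.24, or -0.20 without WT 3. The nuclear rRNA locus had a log2 fold change of -0.01 ± 0.34, and 1 library set its direction: it was 0.26 without WT 3 and -0.34 without WT 7.

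The control region features, which hold no mRNA or rRNA gene, differed little between the groups. The longer had 28268 to 49828 normalized reads in WT and 25789 to 47241 in TG, with a log2 fold change of -0.11 ± 0.20. The shorter had 4821 to 10375 and 5527 to 8967, with a log2 fold change of 0.02 ± 0.23, the only value above 0. Among the overlapping features, the Nd5-Nd6 span had a log2 fold change of -0.33 ± 0.16, the Co3-Nd4l span -0.56 ± 0.53 and the stretch inside Nd1 -0.08 ± 0.49. The last 2 rest on at most 104 normalized reads per library, and their intervals are wide.

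**Figure D4:**
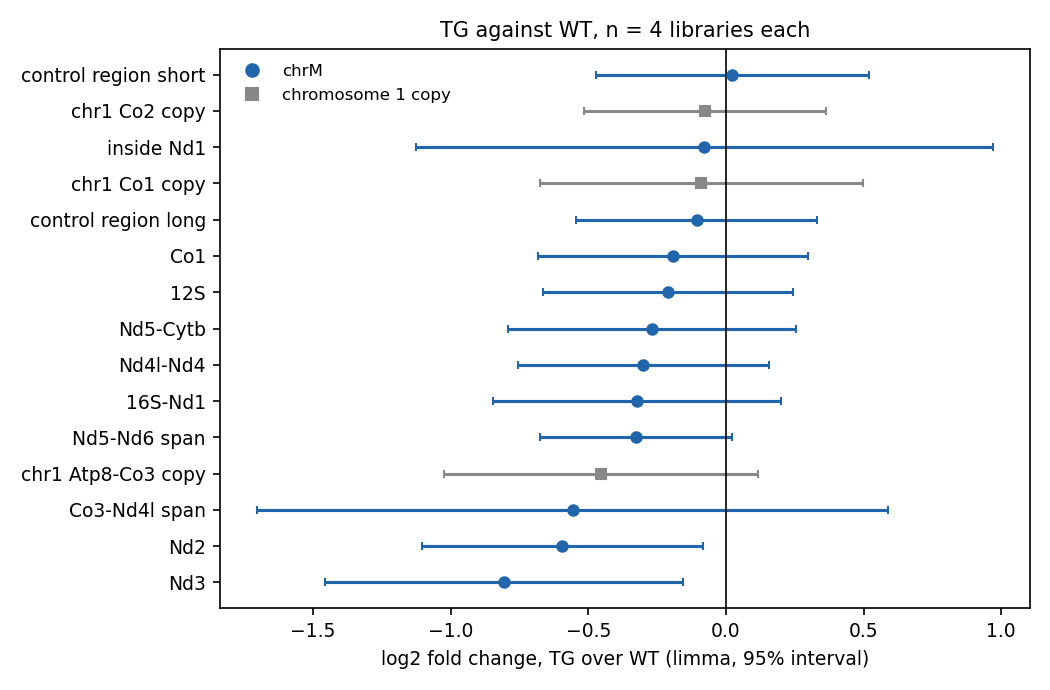
Points give the limma log2 fold change (TG over WT) with its 95% interval for 12 chrM features (blue circles) and 3 chromosome 1 copy features (grey squares), n = 4 libraries a group. The intervals of Nd3 (-1.46 to -0.16) and Nd2 (-1.10 to -0.08) lie below 0 before adjustment, and the others include 0.

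A pair of ratios between chrM features was compared over the libraries. The ratio of 16S-Nd1 to 12S reads was 10.7, 11.8, 14.3 and 11.8 in WT 3, 4, 5 and 7, and 11.3, 11.1, 11.4 and 11.0 in TG 2, 5, 6 and 8. WT 5 was high and the TG libraries lay close together. The difference in mean log2 ratio was -0.11 (exact two-sided permutation test over 70 regroupings, p = 0.2, adjusted p = 0.4 over 2 ratios). It was -0.17 without WT 3 (exact two-sided permutation test, p = 0.0286, the smallest that 3 libraries against 4 can give, adjusted p = 0.0571 over 2 ratios) and -0.03 without WT 5. For the Nd5-Nd6 span over Nd5-Cytb, the mean log2 ratio was -11.13 ± 0.14 in WT and -11.19 ± 0.11 in TG (exact two-sided permutation test, p = 0.514, adjusted p = 0.514). With all 8 libraries the smallest p this design can give is 0.0286.

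Nuclear genes that make, process or work with mitochondrial RNA showed no call in any list. Those for mitochondrial transcription and genome maintenance had 9 members higher and 8 lower of 17 tested, with a median log2 fold change of 0.10. Mrpl12, a ribosomal protein that also binds the mitochondrial RNA polymerase, was at -0.40, Mgme1, a mitochondrial exonuclease, at -0.55, and Peo1, the mitochondrial DNA helicase, at 0.39. RNA processing and modification had 10 higher and 12 lower of 22, with a median of -0.06. Its members of smallest p were Angel2 at -0.52, Trit1, a tRNA-modifying enzyme, at -0.36, and Trmu, a tRNA-thiolating enzyme, at -0.25. RNA stability and decay had 12 higher and 6 lower of 18, with a median of 0.05. Its members of smallest p were Fastkd3 at 0.45, Ddx28, an RNA helicase, at 0.20 and Taco1, a translational activator of mt-Co1, at -0.33. In each of these lists 1 member had an unadjusted limma p under 0.05, against 4.64% of all features. The groups did not overlap for Mrpl12, lower in TG, and Fastkd3, higher in TG, against 2.53% of all features in either direction.

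The list of mitochondrial biogenesis regulators holds transcription factors and coactivators of nuclear genes for mitochondria, and the enzymes Sirt1, Prkaa1 and Prkaa2. All 13 members tested were lower on average, against 52.2% of all features, with a median log2 fold change of -0.34 and 0 calls. Esrrb, an orphan nuclear receptor, was at -0.65 ± 0.28, Ppargc1a, a coactivator, at -0.62 ± 0.32 and Gabpa, a subunit of nuclear respiratory factor 2, at -0.32 ± 0.20 (SE). An unadjusted p under 0.05 was reached by 1 of the 13, against 4.64% of all features. The groups overlapped for every member, and 2.53% of all features had groups that did not overlap. Ppargc1a had 495, 925, 359 and 1077 normalized reads in WT 3, 4, 5 and 7, and 365 to 593 in TG. Esrrb and Gabpa were likewise highest in WT 4 and WT 7. Members that rise in the same libraries do not count as separate pieces of evidence. WT 4 had the lowest chrM share of the WT libraries (21.9%), and the relation of this list to the chrM values was not tested.

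The nuclear partners of the chrM-encoded subunits lay nearer 0. The nuclear subunits of complex I had 26 members higher and 11 lower of 37, with a median log2 fold change of 0.09, and their members of smallest p were Ndufb8 at -0.37, Ndufb10 at 0.25 and Ndufa8 at 0.20. Complex III had 4 higher and 5 lower of 9, with a median of -0.02 (Uqcrq -0.21, Uqcrfs1 0.14, Uqcrc1 0.10). Complex IV had 7 higher and 3 lower of 10, with a median of 0.08 (Cox6b1 0.14, Cox6c -0.13, Cox7c 0.13).

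ATP synthase had 10 higher and 6 lower of 16, with a median log2 fold change of 0.06 (Atp5l -0.18, Atp5o 0.16, Atp5h 0.14). Complex II, the respiratory complex with no chrM-encoded subunit, had all 4 members higher on average, with a median of 0.16 (Sdhc 0.21, Sdhb 0.17, Sdha 0.15). For comparison, 47.8% of all features were higher in TG. None of these 76 nuclear subunits had an unadjusted p under 0.05, against 4.64% of all features. Together they took 2.51 to 2.75% of reads outside chrM and its copy in WT and 2.42 to 2.79% in TG. The difference between the chrM-encoded and the nuclear subunits was not tested.

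**Figure D5:**
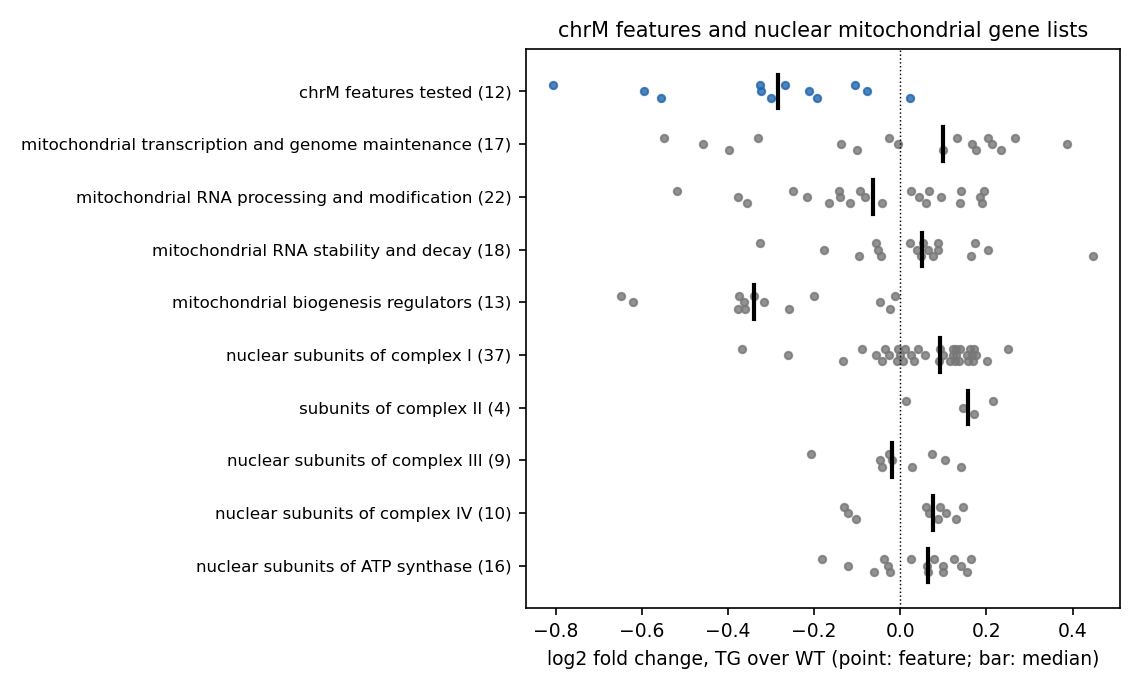
Each point is the log2 fold change (TG over WT) of 1 feature, by list, with the number tested in parentheses and a bar at the median. The chrM features (median -0.28) and the biogenesis regulators (median -0.34) lie mostly left of 0, and the lists of nuclear subunits have medians from -0.02 to 0.16.

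Markers of several cell types also differed between libraries. WT 3, with the highest chrM share, also had the highest pigment epithelium and lens sums, and TG 5, with the lowest chrM share, had the highest sum of 10 microglia and macrophage markers (0.0833%, against 0.0317 to 0.0497% in the other 7 libraries). The order did not hold for every library: WT 7, with a chrM share of 27.2%, had sums of 0.0272% for pigment epithelium and 0.000169% for lens, and TG 6, with a share of 22.3%, had a lens sum of 0.0384%. The microglia and macrophage sum had a WT mean of 0.0381% ± 0.00700 and a TG mean of 0.0527% ± 0.0215 (SD over 4 libraries), and the ranges overlapped. All 10 of these markers had a higher mean log2 level in TG, with a median log2 fold change of 0.38, and 2 had an unadjusted p under 0.05. Across all features 47.8% were higher in TG, and 4.64% had an unadjusted p under 0.05 in either direction.

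Rod markers were lowest in TG 5 as well (10.2%). The highest rod sum was that of TG 6 (13.9%), with a chrM share of 22.3%, so this order did not hold for every library either. Of the 15 rod markers 11 were lower in TG, with a median log2 fold change of -0.13 and 3 under an unadjusted p of 0.05. Of the 8 cone markers 5 were lower, with a median of -0.27 and 2 under that p. Across all features 52.2% were lower in TG, and 4.64% were under that p in either direction. Among the marker lists the lens list had the largest median, at 0.95. Of its 8 markers 7 were higher in TG and 1 lower, with 0 under that p. No marker of the microglia and macrophage, rod, cone or lens lists passed the adjusted test. The sum of 8 cone markers ran from 0.243 to 0.305% in WT and from 0.210 to 0.284% in TG. The sum of 8 Mueller glia markers ran from 0.145 to 0.238% in WT and from 0.121 to 0.249% in TG, and that of 6 red blood cell markers from 0.00597 to 0.0845% and from 0.0275 to 0.0575%. Muscle markers were at or under 0.000557% in every library, with Myh2 at 0. The part of these cell types in the chrM values was not tested.

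The nuclear features whose level most resembled the chrM share over the 8 libraries were named as a description. Of 15060 nuclear features with a mean of at least 50, the highest Pearson r was that of the feature labelled Mir204 (0.93), followed by Tmem62 (0.92), Ccdc167 (0.91), Selt (0.90) and the feature labelled 2610203C20Rik // 3110039I08Rik (0.90). Of the 15060, 4 had an r above 0.9 and 6 an r below -0.9, so the named features are the top of a large search over 8 libraries. The points are libraries that share their depth and size factor, and no test was made.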

How the data were processed

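Polyadenylated RNA of 8 detached retinas was made into strand-marking libraries, per the labels' protocols. The deposited values are a signal, DESeq2-normalized reads per feature on mm10 (GRCm38), scaled by the authors. Alignment tools named in the submitters' processing notes are STAR 2.4.0, SAMtools and Picard, with FastQC for quality. The sources used here do not give the counting tool, its strand setting, the annotation or the treatment of reads with several places. Values were whole multiples of one read (100% within 0.01), so reads were recovered, 61535690 to 75866423 per library.

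Fits used limma 3.58.1 (R 4.3.3) on log2(value + 1), with a trended prior, keeping the 19798 features whose mean was 10 or more. P-values were adjusted by Benjamini-Hochberg over all of them, with a threshold of 0.05. Fold changes on this scale understate changes of low features. Alternatives were edgeR 4.0.16 (quasi-likelihood) and DESeq2 1.42.0 on recovered reads, other scalings, pseudocounts of 0.5 and 5, other filters, terms for sex or eye, males only, and each library left out. On simulated data (19262 features) the fit recovered 47% of 100 2-fold and 82% of 100 4-fold changes, with 11 false calls and 0 without changes. Ratios were compared by exact permutation.

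Since features merge genes, the 16S to 12S ratio used 16S-Nd1 over 12S, the mt-Nd6 to mt-Cytb ratio used the Nd5-Nd6 span over Nd5-Cytb, and no tRNA share was computed. Copies were found with BLAST 2.17.0 in GENCODE M21 transcripts, and every printed sequence comes from those transcripts. Of each pathway list, the 3 members of smallest p are named. The 5 nuclear features most like the chrM share are those of highest Pearson r. The members and lists were chosen with earlier results of these data known. Errors are SD for levels and SE for fold changes.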

Additional observations from a re-analysis of the deposited data

Results flagged for a closer look

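Of 36 groups of 4 libraries checked for a library far from the other 3, 3 had one, where chance gives about 1.8. Nd3 had 1866288 normalized reads in WT 3, against 775406 to 893430 in the other WT libraries, a gap of 0.892 of the group's range. Nd4l-Nd4 had 1392666 normalized reads in WT 4, against 2001427 to 2032832 in the other WT libraries, a gap of 0.951 of the range. The chrM share of reads was 20.4% in TG 5, against 22.1 to 22.3% in the other TG libraries, a gap of 0.889 of the range.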

How the results depend on the processing

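No chrM feature was called under any alternative run. Of 252 alternative values of feature fold changes, 236 kept their direction and 16 reversed, all of them in the control region features and the stretch inside Nd1, whose main values lie near 0. The stretch inside Nd1 was 0.41 with males only and 0.42 without WT 3 and TG 6 together. The shorter control region feature was -0.012 by edgeR, -0.011 by DESeq2, -0.14 with a sex term, -0.067 with an eye term and -0.084 with males only. With 1 library left out, the longer control region feature ran from -0.26 to 0.056, the stretch inside Nd1 from -0.37 to 0.20 and the shorter control region feature from -0.17 to 0.20.

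Nd3 ran from -1.31 to -0.51 and Nd2 from -0.75 to -0.42 over all alternatives, with lowest adjusted p of 0.614 and 0.519. Without WT 3, 9 chrM features were lower and 3 higher, and 0 had an unadjusted p under 0.05. The same count was 0 with upper-quartile scaling, where the chrM median was -0.24. Of all features, 780 of 19688 had an unadjusted limma p under 0.05 without WT 3, and 885 of 19843 with upper-quartile scaling. Over all features, limma made 2 calls and DESeq2 16.

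The chrM share difference ran from -4.69 to -2.82 percentage points with 1 library left out, the 12S share difference from -0.0245 to 0.236 and the mRNA share difference from -0.786 to 0.659. Set per kilobase, the 12S share of chrM levels differed by 0.474 percentage points, against 0.115 in reads; the cause was not tested. With 1 library left out, the 16S to 12S log2 ratio differed by -0.17 to -0.03 and the Nd5-Nd6 to Nd5-Cytb log2 ratio by -0.12 to -0.01. The tRNA share could give no value under any alternative, since no feature holds tRNA alone. No paired analysis was made, since the labels give no pairing of WT with TG samples. The replicate number that both groups hold, 5, does not mark a pair. Counting depth limits the stretches inside 12S and Nd1 and the Co3-Nd4l span, which rest on few reads.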
